A study of Mus musculus with 4 samples.

Results

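The Notch genes described here are 10 genes of the cell-to-cell signalling pathway named after its receptors, taken by symbol from the 24972 genes of the deposited table: the receptors Notch1, Notch2 and Notch3, the ligands Jag1, Jag2 and Dll1, the receptor-modifying enzyme Lfng, and the target genes Hes1, Hes5 and Hey1. All 10 were found and all 10 were tested. RNA was measured in the dental arch of the mouse lower jaw at embryonic day 17.5, in 2 libraries from embryos homozygous for an Ascl5 variant (Ascl5MutMut, mutant libraries 18 and 14) and 2 from embryos homozygous for the wild-type allele (Ascl5WTWT, wild-type libraries 15 and 20). Ascl5 is a gene for a transcription factor of the basic helix-loop-helix class. The question is how the variant alters gene expression in the developing teeth and jaw. Values are normalized counts, that is, reads per gene after the authors' scaling between libraries, and sum to 22134483 to 22578580 per library. The library numbers are sample codes, not ages. The labels give neither what the variant changes in the gene, nor the strain, the sex, the litter or the number of embryos behind a library, so p-values reflect only how far these 4 libraries scatter, and part of that scatter may be technical.

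Notch signalling passes between touching cells. A ligand on one cell binds a receptor on its neighbour, proteases cut the receptor, and the freed intracellular part joins the DNA-binding protein RBPJ in the nucleus, where it switches on genes of the Hes and Hey families, which encode repressors. In the tooth germ, Jag2 is known from the inner enamel epithelium, the layer that becomes the enamel-forming ameloblasts, and Notch1 from the stratum intermedium beside it. The same genes are used in blood vessels, nerves, muscle and skin, all of which are part of a dissected jaw. In such bulk RNA, fewer cells of a type and less RNA per cell cannot be told apart.

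Among the promoter windows of RefSeq (build GRCm38.p6), 8 of the 10 genes had an entry, with 9 windows in all. Hes1 and Hey1 had no window and could not be searched. The windows of Hes5 and Lfng held a match to TTCCCAC, the letters to which RBPJ is known to bind. The search took both strands (GTGGGAA on the other) in the 250 bases before the start that RefSeq uses. For Lfng that start lies 21 bases inside the GENCODE gene record whose coordinates are given below. They are shown because Hes5 is the gene whose libraries separated by genotype and Lfng one whose libraries did not. Capitals mark the matches, on the plus strand, at chr4:154960673-154960922 for Hes5 and chr5:140607091-140607340 for Lfng.
Hes5: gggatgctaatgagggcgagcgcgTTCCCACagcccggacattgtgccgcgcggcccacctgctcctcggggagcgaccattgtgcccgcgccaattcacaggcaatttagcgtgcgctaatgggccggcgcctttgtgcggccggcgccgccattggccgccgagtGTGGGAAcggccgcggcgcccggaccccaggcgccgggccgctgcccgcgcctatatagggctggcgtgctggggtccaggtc
Lfng: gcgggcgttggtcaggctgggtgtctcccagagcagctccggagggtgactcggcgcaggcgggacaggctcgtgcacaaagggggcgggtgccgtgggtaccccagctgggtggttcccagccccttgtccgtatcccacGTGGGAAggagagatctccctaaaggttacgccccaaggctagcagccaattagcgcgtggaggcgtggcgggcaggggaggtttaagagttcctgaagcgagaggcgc
The Hes5 window held 2 matches on opposite strands, TTCCCAC starting 226 bases and GTGGGAA starting 83 bases before the RefSeq start. The Lfng window held 1 match, starting 109 bases before its RefSeq start. Of all 32851 windows, 5.4% held at least 1 match and 0.16% held 2 or more. A match describes the letters only.

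None of the 10 Notch genes passed the test of mutant against wild type, which limma made on log2(normalized count + 0.5) over 17979 genes with Benjamini-Hochberg adjustment at 0.05. All 10 had an adjusted p of 0.9999, and 0 had an unadjusted p under 0.05. Over all genes tested, 0.0111% passed (2 genes) and 4.27% had an unadjusted p under 0.05. The log2 fold changes, mutant over wild type, were above 0 for 5 genes and below 0 for 5 (49.4% of all genes tested were below 0), with a median of 0.005 against 0.003 over all genes tested. For the 9 genes other than Hes5, the 95% intervals of the fold change lay between 0.724-fold (the lower end for Notch3) and 1.84-fold (the upper end for Dll1), while that of Hes5 ran from 0.0891-fold to 1.37-fold. The genotypes did not overlap for 1 of the 10 genes, Hes5, against 27.4% of all genes tested.

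**Figure D1:**
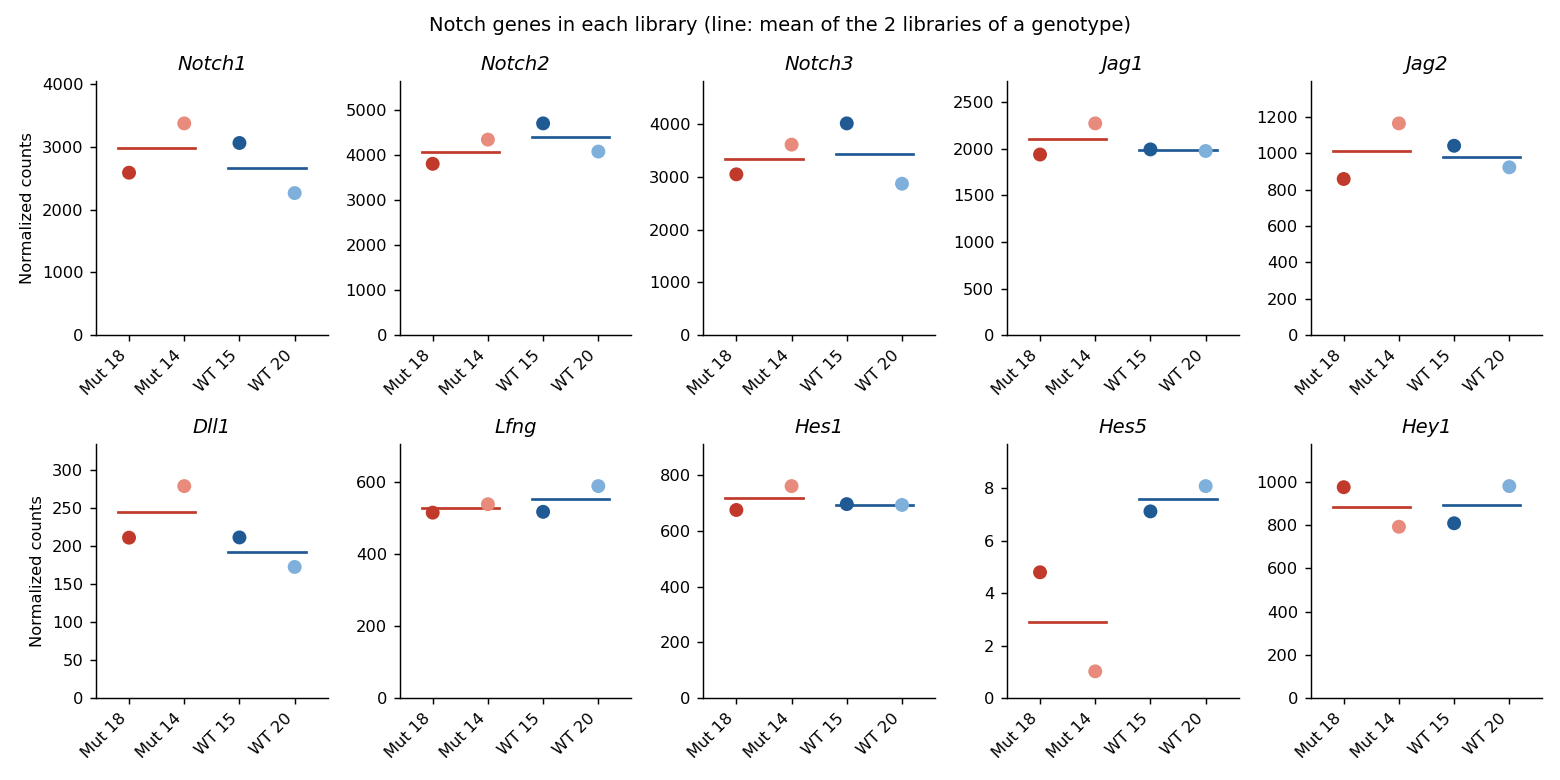
Normalized counts (vertical axes, each from 0) of the 10 Notch genes in mutant libraries 18 and 14 (red) and wild-type libraries 15 and 20 (blue); points are libraries and lines the mean of a genotype. The mutant points overlap the wild-type points in every panel but that of Hes5, where the values lie between 1.013 and 8.09.

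Of the receptors, Notch1 (GRCm38 chromosome 2, 26457903 to 26516663) was measured at 2586 and 3371 normalized counts in mutant libraries 18 and 14, against 3059 and 2262 in wild-type libraries 15 and 20. Each genotype held a high and a low library, and the ranges overlapped. The means were 2979 ± 555.1 in mutant and 2660 ± 563.5 in wild type (SD, n = 2 each), with a log2 fold change of 0.17 (SE 0.19, 95% interval -0.28 to 0.62). Notch2 (chromosome 3, 98013527 to 98150361), a receptor widely used in connective tissues, had 3807 and 4345 in mutant libraries 18 and 14 and 4705 and 4079 in wild-type libraries 15 and 20. Wild type 15 was the highest and mutant 18 the lowest, with mutant 14 above wild type 20. Its log2 fold change was -0.11 (SE 0.15, 95% interval -0.45 to 0.23). Notch3 (chromosome 17, 32120820 to 32166852), the receptor known from the cells around small blood vessels, had 3047 and 3610 in mutant libraries 18 and 14 and 4012 and 2869 in wild-type libraries 15 and 20. The wild-type libraries enclosed both mutant libraries, and the log2 fold change was -0.03 (SE 0.19, 95% interval -0.47 to 0.40).

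Of the ligands, Jag1 (chromosome 2, 137081456 to 137116644) had 1937 and 2271 normalized counts in mutant libraries 18 and 14, against 1992 and 1975 in wild-type libraries 15 and 20. The wild-type libraries lay close together, between the mutant ones. The log2 fold change was 0.08 (SE 0.14, 95% interval -0.24 to 0.40). Jag2 (chromosome 12, 112907819 to 112929776), the ligand of the inner enamel epithelium, had 858.4 and 1164 in mutant libraries 18 and 14 and 1041 and 922.6 in wild-type libraries 15 and 20. Here too the mutant libraries enclosed the wild-type ones, and the log2 fold change was 0.03 (SE 0.18, 95% interval -0.39 to 0.44). Dll1 (chromosome 17, 15367354 to 15376872), a ligand known from nerve and muscle precursors, had 210.6 and 278.4 in mutant libraries 18 and 14 and 210.9 and 172.1 in wild-type libraries 15 and 20. Mutant 18 and wild type 15 were nearly level, so the genotypes overlapped, and the means were 244.5 ± 47.97 in mutant and 191.5 ± 27.42 in wild type (SD, n = 2 each). Its log2 fold change of 0.35 (SE 0.23, 95% interval -0.19 to 0.88) was the highest of the 10 and came with an unadjusted limma p of 0.173.

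Lfng (chromosome 5, 140607320 to 140615545) encodes a fringe enzyme of the Golgi that adds a sugar to Notch receptors and so alters which ligands they answer. It had 514.7 and 538.1 normalized counts in mutant libraries 18 and 14, against 517.0 and 588.5 in wild-type libraries 15 and 20. Wild type 20 was the highest and the other 3 libraries lay within a narrow band. The log2 fold change was -0.07 (SE 0.16, 95% interval -0.43 to 0.30).

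Of the targets, Hes1 (chromosome 16, 30064384 to 30067796), a repressor that keeps progenitor cells from differentiating, had 675.8 and 761.7 normalized counts in mutant libraries 18 and 14, against 696.9 and 693.9 in wild-type libraries 15 and 20. The wild-type libraries again lay between the mutant ones, and the log2 fold change was 0.05 (SE 0.15, 95% interval -0.30 to 0.38). Hey1 (chromosome 3, 8663359 to 8667256), a related repressor known from heart, vessels and bone, had 976.9 and 793.4 in mutant libraries 18 and 14 and 809.6 and 982.0 in wild-type libraries 15 and 20. Its genotype means were the closest of the 10 on the log2 scale (-0.02, SE 0.17, 95% interval -0.41 to 0.38), although each genotype held 1 high and 1 low library.

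Hes5 (chromosome 4, 154960923 to 154962371) is a target with much use in neural progenitors and the gene of the 2 promoter matches above. It had 4.797 and 1.013 normalized counts in mutant libraries 18 and 14, against 7.124 and 8.09 in wild-type libraries 15 and 20. Both mutant values were below both wild-type values, as for 14% of all genes tested. The commonest low value, which may stand for a single read, was 0.9497 and 1.0141 in mutant libraries 18 and 14 and 1.0522 and 0.9869 in wild-type libraries 15 and 20, so Hes5 rested on about the signal of a few reads in each library. The log2 fold change was -1.52 (SE 0.85, 95% interval -3.49 to 0.46) with an unadjusted limma p of 0.114, ranking 1589 of 17979 genes. It was -0.61 without mutant 14 and -2.42 without mutant 18, and did not pass in either fit (limma, adjusted p = 0.9985 and 0.6241). Each of these fits has 1 mutant library, which is assumed to vary as the wild-type libraries do. Mutant 14 minus mutant 18 was -1.81 on the log2 scale, larger in size than the genotype difference. By the distance between log2 profiles centred on their own mean over the 4 libraries, the genes most like Hes5 among 13129 with a mean of at least 50 were Vwde (distance 0.266), Slc9a2 (0.484) and Pdzrn4 (0.487). Vwde had 47.51 and 22.24 normalized counts in mutant libraries 18 and 14 and 95.26 and 110.1 in wild-type libraries 15 and 20. Such a search returns nearest genes for any profile, no background of distances was computed, and the likeness was not tested.

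**Figure D2:**
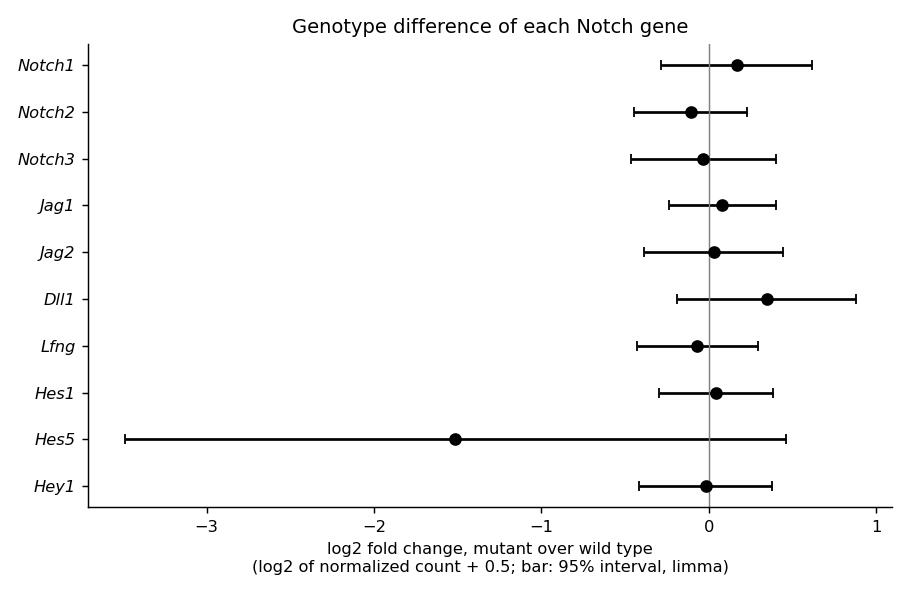
Log2 fold change of each Notch gene, mutant over wild type (horizontal axis), with its 95% interval from limma as a bar. Every bar crosses 0, and the bar of Hes5, from -3.49 to 0.46, is the widest.

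For all 10 genes the genotype difference was smaller than the larger of the 2 differences between libraries of the same genotype, as for 82.8% of all genes tested. The median size of the log2 difference was 0.27 between the mutant libraries and 0.20 between the wild-type libraries, against 0.07 between the genotype means. Means of 2 libraries scatter less than single libraries, so the last value tends to be smaller even without a genotype effect. Over all genes tested these medians were 0.23, 0.23 and 0.13. The differences within a genotype ran the same way for most of the genes. Mutant 14 was above mutant 18 for 8 of 10 (all but Hes5 and Hey1) and wild type 15 above wild type 20 for 7 of 10 (all but Lfng, Hes5 and Hey1), where 52.0% and 51.5% of all genes tested ran that way. Notch1, for example, differed by 0.38 between mutant 14 and mutant 18 and by 0.43 between wild type 15 and wild type 20 on the log2 scale. Hey1 ran the other way in both, by -0.30 and -0.28. Mutant 14 was the highest library for Notch1, Jag1, Jag2, Dll1 and Hes1, and mutant 18 was the highest for none.

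**Figure D3:**
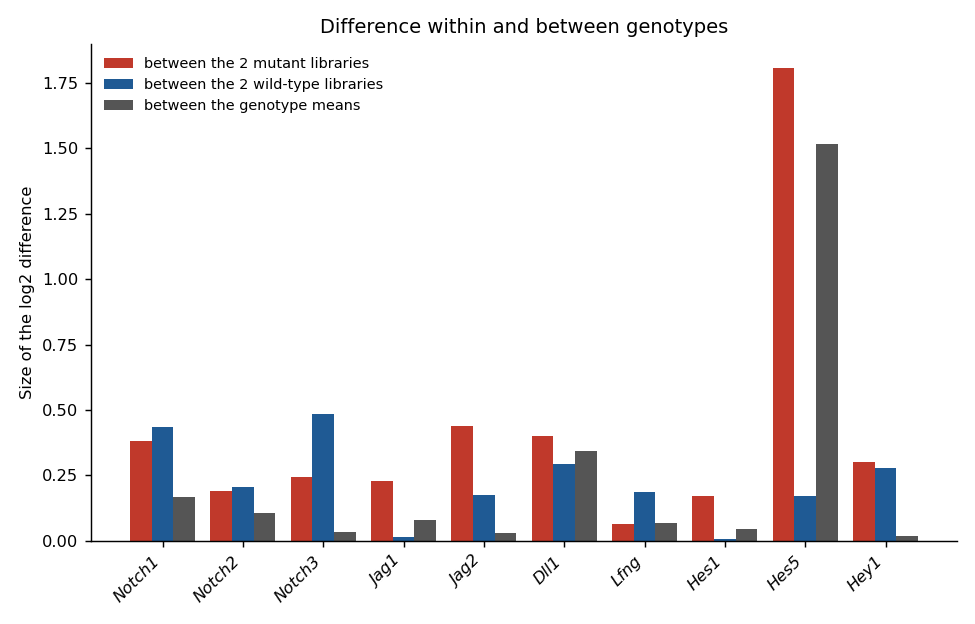
Size of the log2 difference (vertical axis) between mutant 14 and mutant 18 (red), between wild type 15 and wild type 20 (blue) and between the genotype means (grey) for each Notch gene. The grey bar is shorter than the taller coloured bar for all 10 genes.

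The libraries also differed in the levels of marker genes for cell types of the dissected tissue. Markers of ameloblasts, dental mesenchyme, bone, cartilage, vessels, nerve and muscle were above 0 in all 4 libraries. The summed blood markers (4 of 4 found, 3 globins among them) were 97476 and 244733 in mutant libraries 18 and 14 and 235547 and 101763 in wild-type libraries 15 and 20, high and low in the same libraries as Notch1 and Notch3. The 8 ameloblast-line markers summed to 7445 and 4165 in mutant 18 and 14 and to 3786 and 9419 in wild type 15 and 20, high in the same libraries as Hey1. Keratinocyte markers of skin and oral lining (11 of 12 found, 9 higher in mutant with no overlap, where 13.4% of all genes tested were) summed to 145691 and 225641 in mutant 18 and 14 and to 86908 and 82046 in wild type 15 and 20, and the 6 salivary gland markers to 91 and 5039 against 67 and 75. Other lists ran lower in mutant. With no overlap, 6 of 8 dental mesenchyme markers, 4 of 6 chondrocyte markers and 3 of 6 osteoblast markers were lower, where 14% of all genes tested were, and the lists' median log2 fold changes were -0.50, -0.50 and -0.42. The dental mesenchyme markers summed to 8347 and 7746 in mutant 18 and 14 and to 10520 and 11809 in wild type 15 and 20. Without overlap, 2 of 5 neuron, 3 of 5 Schwann cell and 3 of 5 macrophage markers were higher in mutant. Of all genes tested, 13.4% were. The median log2 fold changes of these lists were 0.69, 0.37 and 0.27. Of 5 stratum intermedium markers, 2 were higher and 1 lower in mutant with no overlap (13.4% and 14% of all genes tested). They summed to 26721 and 33236 in mutant 18 and 14 and to 26397 and 25613 in wild type 15 and 20. Most of this sum came from Dsp and Alpl, which ran in opposite directions. Dsp was highest in mutant 14 (20274), while Alpl, also on the osteoblast list, was lowest there (8217). The sum therefore does not show how much stratum intermedium a library held. Mutant 14, the highest library for 5 of the Notch genes, was highest for the keratinocyte, salivary gland, stratum intermedium, neuron, Schwann cell and blood lists. It was lowest for the dental mesenchyme, chondrocyte, osteoblast, odontoblast, endothelial, pericyte and smooth muscle, skeletal muscle and macrophage lists. The skeletal muscle markers summed to 142013 and 74030 in mutant 18 and 14 and to 126144 and 92507 in wild type 15 and 20. For odontoblast markers the sums were 18328 and 12478 in mutant 18 and 14 and 18065 and 18413 in wild type 15 and 20. The part of these tissues in the Notch values was not tested. Only wild type 15 had a high level of Xist, the RNA made from a silenced X chromosome (38619 normalized counts, against at most 12.7 elsewhere). The Y chromosome genes Ddx3y, Eif2s3y, Kdm5d and Uty were at 0 in wild type 15 and at 744 or more elsewhere. By these markers wild type 15 was female, and mutant 18, mutant 14 and wild type 20 were male. The part of sex in the Notch values was not tested. Without wild type 15, the median log2 fold change of the 10 genes was 0.07. Of 9 annotated genes that overlap 6 of the Notch genes, 3 had a row that could be read here. Of these, 2 miRNA genes were listed at 0, and 0610009E02Rik, antisense to Notch1, was at 22.96 and 8.18 in mutant libraries 18 and 14 and 20.48 and 13.52 in wild-type libraries 15 and 20, while Notch1 itself had 2262 or more (normalized counts, not per length).

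Per kilobase of exon, the receptors Notch3 and Notch2 stood highest. The length joined all exons of a gene in GENCODE M21, 14.23 kb for Notch1, 10.78 kb for Notch2 and 8.09 kb for Notch3. The annotation behind the counts is not known, and exons not in use would lower a level. Levels of different genes therefore compare only roughly. Notch3 was at 412 ± 49.3 normalized counts per kb in mutant and 425 ± 99.9 in wild type (SD, n = 2 each). Notch2 was at 378 ± 35.3 in mutant and 407 ± 41.1 in wild type (SD, n = 2 each). Their ranges over the 4 libraries, 355 to 496 and 353 to 436, overlapped each other and those of Jag1 (332 to 390) and Hes1 (332 to 374). Hey1 followed at 243 to 301, then Notch1 at 159 to 237 and Lfng at 205 to 235, which overlapped each other, and Jag2 at 123 to 167, which overlapped Notch1. Dll1, at 40.8 to 66, and Hes5, at 0.743 to 5.94, lay below the other 8 genes with no overlap, and apart from each other. Among the ligands the level per kb therefore ran Jag1, Jag2, Dll1 in every library, with no overlap between neighbours, and among the targets Hes1, Hey1, Hes5, also with no overlap.

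**Figure D4:**
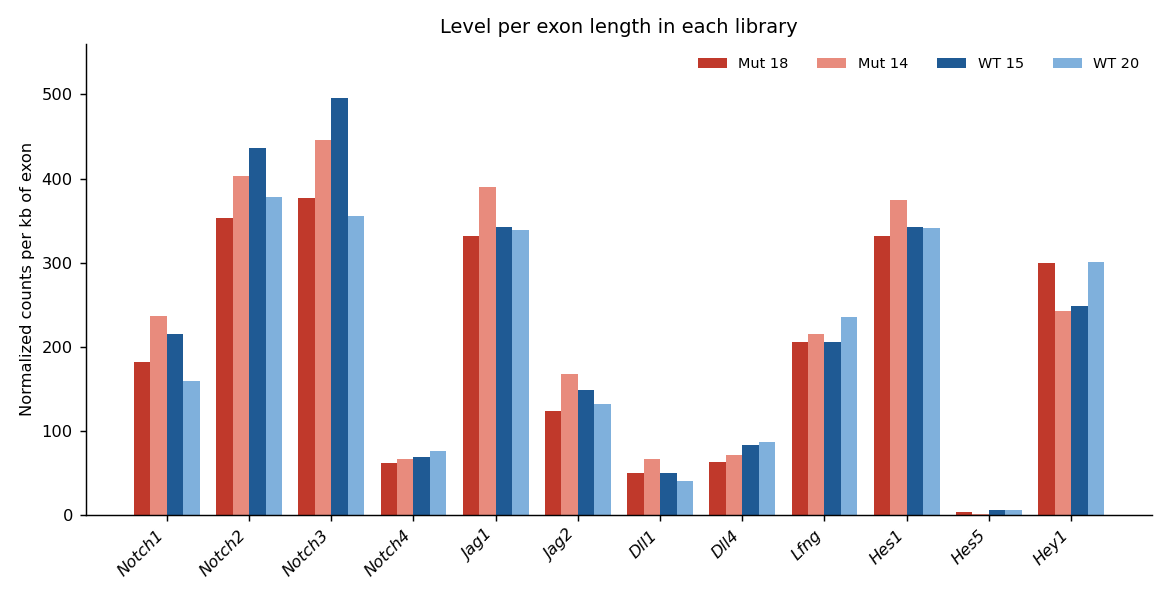
Normalized counts per kilobase of exon (vertical axis, from 0) of the 10 Notch genes with Notch4 and Dll4, in mutant libraries 18 and 14 (red) and wild-type libraries 15 and 20 (blue). Notch3, Notch2, Jag1 and Hes1 are between 332 and 496 in every library, and Hes5 is at most 5.94.

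The rest of the pathway was read from a list of 51 further genes, of which 50 were tested (Hes3 was too low). Of these, 0 passed in either direction and 0 had an unadjusted limma p under 0.05. The log2 fold change was above 0 for 19 and below 0 for 31, with a median of -0.03, and 10 of 50 had no overlap between genotypes, where 27.4% of all genes tested did. Of the 10, 2 were higher in mutant (13.4% of all genes tested) and 8 lower (14% of all genes tested). Dner, a Notch-binding protein of neurons picked out after its values were seen, was among the higher and had 281.0 and 274.7 normalized counts in mutant libraries 18 and 14 and 265.3 and 272.7 in wild-type libraries 15 and 20.

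Among the other ligands and receptors, Dll4, the ligand of vessel sprouts, had 241.6 and 275.8 normalized counts in mutant libraries 18 and 14, against 321.9 and 333.2 in wild-type libraries 15 and 20. Both mutant libraries were below both wild-type libraries, with a log2 fold change of -0.34 (SE 0.18, 95% interval -0.77 to 0.08) and an unadjusted limma p of 0.0974. Notch4, the receptor of vessel endothelium, had 501.1 and 534.9 in mutant libraries 18 and 14 and 555.8 and 609.3 in wild-type libraries 15 and 20, likewise with no overlap (log2 fold change -0.17, SE 0.15, 95% interval -0.52 to 0.19). The 8 endothelial markers summed to 12553 and 12171 in mutant 18 and 14 and to 12785 and 12312 in wild type 15 and 20, which overlapped. Of these 8, 2 were lower in mutant with no overlap (Tie1 and Cldn5, log2 fold changes -0.20 and -0.19), where 14% of all genes tested were. The list held 0 that were higher with no overlap, and its median log2 fold change was -0.04. Tek and Emcn ran the other way, with overlap (0.17 and 0.16). The part of vessel cells in the Dll4 and Notch4 values was not tested. Of the genes that modify and cut the receptor, 4 of 14 had a log2 fold change above 0. Mfng, another fringe enzyme, had 159.0 and 186.4 in mutant libraries 18 and 14 and 209.5 and 220.8 in wild-type libraries 15 and 20, with no overlap (log2 fold change -0.32, SE 0.21).

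In the nucleus, Rbpj, the DNA-binding partner of all Notch receptors, had 3179 and 3320 normalized counts in mutant libraries 18 and 14, against 3839 and 2909 in wild-type libraries 15 and 20. The wild-type libraries enclosed the mutant ones (log2 fold change -0.04, SE 0.16, 95% interval -0.42 to 0.34). Tle2, a Groucho co-repressor that works with Hes proteins, had 913.9 and 1023 in mutant libraries 18 and 14 and 1341 and 1088 in wild-type libraries 15 and 20, with no overlap, and its unadjusted limma p of 0.0772 was the smallest among the 60 pathway genes tested (log2 fold change -0.32, SE 0.16). Its relative Tle4 had 853.2 and 822.9 in mutant libraries 18 and 14 and 832.5 and 764.2 in wild-type libraries 15 and 20, which overlapped. Nrarp, a target that limits Notch signalling, had 693.9 and 917.3 in mutant libraries 18 and 14 and 710.9 and 641.8 in wild-type libraries 15 and 20. It was highest in mutant 14, as Notch1 and Hes1 were, and overlapped between genotypes (log2 fold change 0.24, SE 0.18). The 12 genes of ligand and receptor traffic had log2 fold changes between -0.26 and 0.06, and 1 of them, the ubiquitin ligase gene Neurl1b, also picked out after its values were seen, was lower in mutant with no overlap (log2 fold change -0.17).

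**Figure D5:**
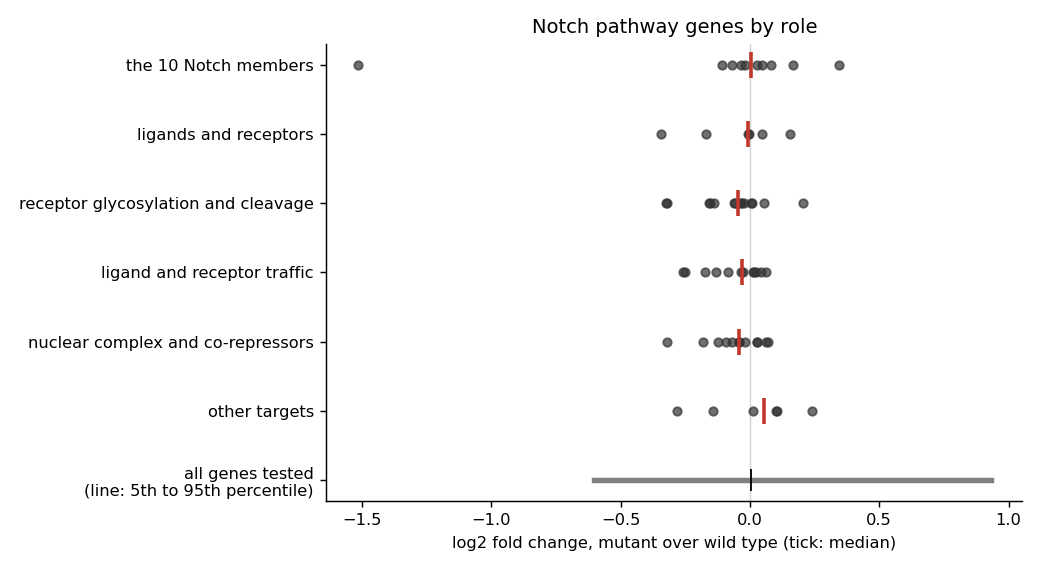
Log2 fold change, mutant over wild type (horizontal axis), of the 10 Notch members and of the 50 further pathway genes by role; dots are genes, red ticks list medians, and the grey line spans the 5th to the 95th percentile of all genes tested (-0.60 to 0.93). Every dot other than that of Hes5, at -1.52, lies inside that span.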

How the data were processed

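Polyadenylated RNA was sequenced from 4 libraries, 2 per genotype. The deposited values are signal, a normalized count per gene and library. The submitters' processing notes name DESeq2, without a version, and genome build mm10. The sources used here do not give the aligner, the counter, its strand setting or the annotation. Library sums were 22134483 to 22578580. Only 50.6% to 57.9% of low values were whole multiples (within 0.1) of the commonest low value, so reads were not recovered.

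Genes with a mean of at least 1 were fitted with limma 3.58.1 (R 4.3.3) on log2(value + 0.5) with a mean-variance trend, adjusted by Benjamini-Hochberg. The fit was tested on simulated data with a set spread, not the spread of these libraries. The simulation therefore does not show how small a change could be found here. With 2 libraries against 2, an exact permutation test of 1 gene cannot go below p = 0.333. No pair of libraries was a duplicate (squared difference over sum at least 18.8 per gene in every pair). The smallest value, 18.8, was between mutant 18 and wild type 20, which differ in genotype. It was 44.2 between the mutant libraries and 40.6 between the wild-type libraries. Exon lengths and coordinates came from GENCODE M21 (GRCm38, which mm10 denotes).

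The members and lists were chosen with earlier results of these data known. Named genes were all members, Rbpj, Notch4, the 3 further pathway genes with the smallest p in each direction, and the 3 genes nearest in profile to the member with the smallest p; a gene that this rule takes is not reported here. Alternatives covered scaling, filter, pseudocount, variance model and each library left out.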

Additional observations from a re-analysis of the deposited data

How the results depend on the processing

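Under all 9 alternatives of scaling, filter, pseudocount and variance model, and in all 4 fits with a library left out, 0 of the 10 Notch genes and 0 of the 50 further genes passed; at an unadjusted limma p under 0.05 there was at most 1 in either list. A fit with a library left out sets 1 library against 2 and assumes that the lone library varies like the other genotype, so it says little on stability. Hes5 was not tested with a mean of at least 10. The median log2 fold change of the 10 was 0.0052 to 0.029 in the 9 and -0.071 (without mutant 14) to 0.111 (without mutant 18) in the 4. No gene changed direction in the 9. With a library left out, Dll1, Notch2 and Hes5 kept theirs; ranges were -0.051 to 0.38 for Notch1, -0.27 to 0.21 for Notch3, -0.034 to 0.20 for Jag1, -0.19 to 0.25 for Jag2, -0.16 to 0.026 for Lfng, -0.041 to 0.13 for Hes1, -0.17 to 0.13 for Hey1, and 0.14 to 0.55 for Dll1. Over all genes the count of 2 became 1 with no filter or no trend, 4 with pseudocount 1 or robust moderation, and 0 to 6 with a library left out (0 without mutant 18 or mutant 14, 6 without wild type 20); the cause was not tested. No paired analysis was possible because the genotypes share no replicate number. Of the 10, Hes5 rests on the signal of a few reads.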

Other observations

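The mix of receptors and of ligands within a library does not depend on a scaling factor common to all genes of a library. These shares of the summed level per kb were computed after the data were seen, and are values without a test. They rest on the joined exon lengths, so shares of different genes compare only roughly. Of the summed Notch1 to Notch4 level, Notch1 made up 18.7% and 20.6% in mutant libraries 18 and 14 and 17.7% and 16.4% in wild-type libraries 15 and 20. Both mutant shares were above both wild-type shares, although the Notch1 counts overlapped. Counts of 27.4% of all genes tested had no overlap, and no such background was computed for shares. Notch4 made up 6.4% and 5.8% in mutant 18 and 14 and 5.7% and 7.8% in wild type 15 and 20, which overlapped. Notch2 made up 36.3% and 35.0% in mutant 18 and 14 and 35.9% and 39.1% in wild type 15 and 20, and Notch3 38.7% in both mutant libraries and 40.8% and 36.7% in the wild-type libraries, which overlapped. Of the summed Jag1, Jag2, Dll1 and Dll4 level, Dll4 made up 11.0% and 10.3% in mutant 18 and 14 and 13.4% and 14.5% in wild type 15 and 20, while Dll1 made up 8.8% and 9.5% in mutant and 8.0% and 6.8% in wild type. Jag1 was the main ligand in each library, at 58.5% and 56.1% in mutant 18 and 14 and 54.7% and 56.6% in wild type 15 and 20.

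Other pathway genes named after their values were seen include Dlk1, which encodes a Notch-like membrane protein of fetal mesenchyme. It had 15064 and 20229 normalized counts in mutant libraries 18 and 14 and 21155 and 14565 in wild-type libraries 15 and 20, high and low in the same libraries as Notch1 and Notch3. Heyl, a target known from muscle and vessel walls, had 903 and 994.2 in mutant 18 and 14 and 1085 and 1010 in wild type 15 and 20, with no overlap and a log2 fold change of -0.14.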
